A study of Mus musculus with 4 samples.

Results

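Chromatin accessibility inside genes was described at 23645 regions that were open in every library of a study of cultured mouse oligodendrocytes (OLs) and oligodendrocyte progenitor cells (OPCs). To find them, overlapping or touching accessibility peaks of the 4 deposited lists were merged into 229743 regions. A region was kept when it was narrower than 1500 bp, held a peak in all 4 lists, and had its midpoint inside a protein-coding gene of the mm10 RefSeq annotation and more than 1 kb from any end of such a gene. The 23645 members were 10.3% of the merged regions and 42.6% of the 55466 regions shared by the 4 lists. The other shared regions were 11841 within 1 kb of a gene end, 18426 outside protein-coding genes, and 1554 of 1500 bp or more. The members were thus chosen by measured values, the presence of a peak in every library and the merged width, so a region open in a single cell type cannot be among them.

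The assay, Omni-ATAC-seq, marks open chromatin by where the transposase Tn5 can cut DNA and attach adapters. It was run on OLs sorted for the O1 surface antigen and on OPCs, from 50000 cells a library, and 129O1 and EpiSC5, both lines of epiblast stem cells, gave 1 library of each cell type (n = 2 a group, 4 libraries). Both groups descended from the same kind of culture: OPCs made from the stem cells without SHH, grown with 20 ng/mL bFGF and 20 ng/mL PDGFA, and sorted for CD140a and NG2 after 4 passages. No transgene, deletion or drug was named for either group, and the strains 129SvEv and 129S1/SvImJ were named for the lines without saying which line came from which. The labels did not say whether the libraries came from separate cultures, so a p-value here speaks only of the spread among these libraries, which may be technical. The smallest two-sided p that an exact permutation test of 2 libraries against 2 can give is 0.33.

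OLs are the cells that wrap axons in myelin in the central nervous system, and they arise from dividing OPCs that leave the cell cycle, extend branched processes and switch on myelin genes. Introns hold many of the enhancers that bind lineage transcription factors such as Olig2 and Sox10, so regions open in both cell types can be sites used at both stages to unequal extents. Accessibility often spreads over the body of an active gene, which raises the reads around a site as well as at it.

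The members were short stretches deep inside long genes. Their median width was 413 bp, with 5% narrower than 175 bp and 5% wider than 1082 bp, and the median distance to the nearest gene end was 20421 bp. The summits in the 4 lists lay within a median of 55 bp of each other. The members fell in 8298 of the 21900 protein-coding genes, of which 3692 held 1 member and 614 held 8 or more. Genes with members had a median length of 47.6 kb, against 17.1 kb for all protein-coding genes, and 275 members lay in overlapping genes. Within 100 bp below the width limit, 160 members had median folds of 7.58 and 7.56 in the 129O1 and EpiSC5 OLs and 7.41 and 7.54 in the OPCs of the same lines. The 108 regions less than 100 bp above the limit had 7.34 and 7.43 in OLs and 7.26 and 7.45 in OPCs. The 282 members up to 100 bp beyond the 1 kb limit from a gene end had median folds of 5.78 and 5.92 in OLs and 6.01 and 5.91 in OPCs, and the 280 regions up to 100 bp short of it had 5.88 and 5.76 in OLs and 6.004 and 5.81 in OPCs.

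Each peak carried the fold and p that the peak caller had given it, and 4 measures were drawn from the lists. The fold compares the reads stacked over the peak's summit with the reads expected from the surroundings. The covered length is the number of bases of the region inside peaks. Because fold and p are both set by the summit reads and the expected reads, solving the 2 values together returned each peak's summit pileup (reads over the summit) and its local background (expected reads, a 10 kb average with the library's genome-wide average as its floor). Folds, covered lengths and pileups were compared as percentile ranks among the 55466 shared regions of each library, and the local background as a log2 ratio to the genome-wide average. The summit reads also lie within the 10 kb window and neighbouring windows overlap, so fold, pileup and background are linked by arithmetic. In bulk chromatin, a larger share of cells with an open site cannot be told apart from a site that is more open in each cell.

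The libraries were of similar depth, with relative depths between 1 and 1.08 estimated from the genome-wide averages and the shortest peaks. Their peaks were not of equal length. The shortest peak was 100 bp in EpiSC5 OPCs, 78 bp in 129O1 OPCs, and 80 and 84 bp in the 129O1 and EpiSC5 OLs. The median peak was 237 bp in EpiSC5 OPCs, 201 bp in 129O1 OPCs, and 190 and 192 bp in OLs. The genome-wide average was 1.57 reads in EpiSC5 OPCs, 1.27 in 129O1 OPCs, and 1.24 and 1.41 in OLs. Raw summit reads and covered bases were not adjusted for this and compare only roughly between libraries. The peak lists fitted the labels in part. Peaks over 9 OL marker genes covered 17807 and 22794 bp in the 129O1 and EpiSC5 OLs, against 9618 and 13242 bp in OPCs, and Mag and Mog had no peak in 129O1 OPCs. In EpiSC5 not every marker went that way, since Mog was covered over 167 bp in OLs and 191 bp in OPCs, and Cnp over 1856 bp in OLs and 1863 bp in OPCs. The 5 OPC markers were covered over 20912 and 25441 bp in OLs and 19491 and 21844 bp in OPCs, so they did not separate the cell types. The 4 astrocyte markers were covered over 3151 and 3886 bp in OLs and 6093 and 7311 bp in OPCs. The 4 vascular and mesenchymal markers were covered over 2112 and 1860 bp in OLs and 5705 and 6274 bp in OPCs. What part other cell types in the cultures had in the differences at members was not tested.

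A small share of members lay over a transcription start inside the gene, and those whose pileup differed between the cell types are shown first, since a start gives the difference a sequence of known role. Of 22917 members on chromosomes with listed starts, 1433 (6.25%) overlapped an annotated start, 1285 of them a start of the gene they lay in, against 62.6% of the shared regions near gene ends and 2.66% of those outside genes. By pileup rank, 17 of the 1433 (1.19%) were higher in OLs and 98 (6.84%) lower, against 8.24% and 6.21% of all shared regions. Of the 21484 members without a start, 2674 (12.4%) were higher in OLs and 1419 (6.60%) lower. The 8 starts printed here were picked after their values were seen, to show both directions and a gene with one of each. Each line runs 5′ to 3′ along the gene's strand from 250 bases before to 50 bases after the start (RefSeq, GRCm38.p6), and capitals mark CpG dinucleotides. Their positions are chr1:132707277-132707576 for Nfasc start, chr7:100656916-100657215 for Plekhb1 start, chr12:82311099-82311398 for Sipa1l1 start, chr16:96273263-96273562 for B3galt5 start 1, chr16:96280782-96281081 for B3galt5 start 2, chr1:165302373-165302672 for Gpr161 start, chr15:88978504-88978803 for Mlc1 start and chr2:127482450-127482749 for Kcnip3 start.
Nfasc start: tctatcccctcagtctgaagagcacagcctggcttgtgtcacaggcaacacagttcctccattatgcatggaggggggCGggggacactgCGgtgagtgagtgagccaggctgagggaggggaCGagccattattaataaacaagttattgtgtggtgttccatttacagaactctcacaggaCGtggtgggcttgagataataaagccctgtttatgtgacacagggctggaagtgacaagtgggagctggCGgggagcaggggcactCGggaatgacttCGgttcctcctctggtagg
Plekhb1 start: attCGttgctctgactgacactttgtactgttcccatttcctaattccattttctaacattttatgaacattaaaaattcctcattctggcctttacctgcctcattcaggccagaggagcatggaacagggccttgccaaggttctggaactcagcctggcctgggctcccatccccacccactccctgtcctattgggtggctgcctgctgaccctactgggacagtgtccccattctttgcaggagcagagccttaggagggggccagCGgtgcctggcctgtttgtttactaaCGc
Sipa1l1 start: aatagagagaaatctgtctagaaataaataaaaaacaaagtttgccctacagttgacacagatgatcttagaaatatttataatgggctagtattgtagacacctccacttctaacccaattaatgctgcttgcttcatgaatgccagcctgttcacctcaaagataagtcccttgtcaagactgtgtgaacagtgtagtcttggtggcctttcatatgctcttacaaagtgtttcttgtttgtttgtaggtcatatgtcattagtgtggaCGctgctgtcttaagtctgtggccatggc
B3galt5 start 1: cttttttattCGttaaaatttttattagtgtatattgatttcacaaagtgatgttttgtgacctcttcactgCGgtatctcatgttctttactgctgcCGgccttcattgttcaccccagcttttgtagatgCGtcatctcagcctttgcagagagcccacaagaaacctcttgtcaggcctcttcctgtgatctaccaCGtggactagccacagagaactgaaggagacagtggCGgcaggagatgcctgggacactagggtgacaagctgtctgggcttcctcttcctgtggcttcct
B3galt5 start 2: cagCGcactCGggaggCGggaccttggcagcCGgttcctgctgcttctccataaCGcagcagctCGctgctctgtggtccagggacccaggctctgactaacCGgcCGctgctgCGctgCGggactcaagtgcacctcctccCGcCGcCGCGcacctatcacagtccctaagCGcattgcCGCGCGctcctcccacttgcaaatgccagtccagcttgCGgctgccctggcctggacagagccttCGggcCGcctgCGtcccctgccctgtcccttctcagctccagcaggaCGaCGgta
Gpr161 start: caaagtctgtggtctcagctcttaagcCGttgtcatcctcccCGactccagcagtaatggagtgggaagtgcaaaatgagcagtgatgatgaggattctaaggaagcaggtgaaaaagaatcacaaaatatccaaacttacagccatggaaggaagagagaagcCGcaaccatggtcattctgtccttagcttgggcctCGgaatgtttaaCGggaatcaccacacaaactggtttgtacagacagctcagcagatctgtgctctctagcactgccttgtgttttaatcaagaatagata
Mlc1 start: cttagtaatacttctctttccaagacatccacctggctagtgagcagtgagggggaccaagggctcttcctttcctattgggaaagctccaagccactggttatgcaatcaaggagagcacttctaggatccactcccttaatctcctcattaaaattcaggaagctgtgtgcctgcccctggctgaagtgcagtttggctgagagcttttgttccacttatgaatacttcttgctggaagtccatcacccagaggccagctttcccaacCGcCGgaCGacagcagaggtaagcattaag
Kcnip3 start: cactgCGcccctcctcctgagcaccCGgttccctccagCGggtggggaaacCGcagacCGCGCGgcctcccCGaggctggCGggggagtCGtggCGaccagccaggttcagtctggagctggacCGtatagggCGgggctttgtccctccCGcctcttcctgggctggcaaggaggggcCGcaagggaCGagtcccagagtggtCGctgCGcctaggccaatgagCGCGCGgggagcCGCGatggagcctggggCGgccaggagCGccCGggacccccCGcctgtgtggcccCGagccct

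The first 4 of these starts lay under members with more summit reads in OLs. The region over the Nfasc start, chr1:132707189-132707896, had 101 and 102 reads in the 129O1 and EpiSC5 OLs, against 39 and 21 in OPCs (limma adjusted p = 0.00397). Nfasc encodes neurofascin, an adhesion protein of the axon and glia contact beside nodes, and its window held 7 CpGs. The Plekhb1 region had 72 and 82 reads in OLs and 42 and 59 in OPCs (adjusted p = 0.00962), and the Sipa1l1 region had 43 and 58 in OLs and 15 and 33 in OPCs (adjusted p = 0.0314). In neither did the groups overlap, and the windows held 3 and 1 CpGs. B3galt5, a galactosyltransferase gene, had a start of each kind. The region over its start 1, with 6 CpGs, had 35 and 66 reads in OLs and 15 and 30 in OPCs (adjusted p = 0.0395), while that over start 2, with 24 CpGs, had 24 and 21 in OLs and 52 and 70 in OPCs (adjusted p = 0.0148). The other 3 regions had fewer reads in OLs. Gpr161, which encodes an orphan receptor that restrains Hedgehog signalling at the cilium, had 14 and 14 reads in OLs and 58 and 70 in OPCs (adjusted p = 0.00485). Mlc1, a membrane protein of astrocyte end-feet, had 12 and 20 reads in OLs and 51 and 98 in OPCs (adjusted p = 0.00992). Kcnip3, a calcium-binding partner of potassium channels, had 26 and 17 reads in OLs and 61 and 77 in OPCs (adjusted p = 0.015).

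The start windows differed in base composition. Those under members higher in OLs by pileup (25 windows) held a median of 4 CpGs and 51.3% G and C. Those under members lower in OLs (112 windows) held 9 CpGs and 55.3%, and those under members not called (1607) held 20 CpGs and 62.0%, near the 23 CpGs and 62.3% of 9325 windows under shared regions at gene ends. All 32851 listed starts had medians of 7 CpGs and 52.7%. The E-box CAGCTG, which Olig2 can bind, was present on either strand in 52.0% of the 25 windows, 22.3% of the 112 and 17.6% of the 1607, against 16.3% of all starts. The Sox motif ACAAAG was present in 40%, 21.4% and 14.4% of those windows in the same order, against 18.7% of all starts. The TEAD motif GGAATG was in 28.0%, 16.1% and 13.5%, against 14.7%, the AP-1 motif TGANTCA in 16.0%, 7.14% and 5.23%, against 7.81%, and the Sox motif ACAATG in 20.0%, 8.04% and 7.16%, against 12.6%. The CTCF core motif was in 0%, 0.893% and 3.11%, against 1.29%, and the palindromic NFI motif in none of them, against 0.0365%. These matches describe windows that share genes and overlap one another, and no binding was measured.

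Across all members, summit reads and the local background differed between OLs and OPCs more often than fold or covered length. By fold rank, 461 members (1.95%) were higher in OLs and 525 (2.22%) lower, against 1.51% and 1.67% of all 55466 shared regions. By covered length rank, 213 (0.901%) were higher in OLs and 142 (0.601%) lower, against 0.705% and 0.663%. Both pairs of shares were near those of all shared regions. By pileup rank, 2779 members (11.8%) were higher in OLs and 1569 (6.64%) lower, against 8.24% and 6.21%. By local background, 2184 (9.24%) were higher in OLs and 1432 (6.06%) lower, against 6.05% and 6.71%. A larger share of members than of shared regions as a whole was called higher in OLs by pileup and background. All calls are at a limma adjusted p under 0.05 over all shared regions. No fold call was made when any 1 library was left out (1924 to 3457 members higher and 2314 to 3717 lower at an unadjusted p under 0.05), while 567 to 3967 pileup calls higher in OLs and 673 to 1909 lower were made. The excess of higher over lower pileup calls was smaller on log2 pileup, with 2780 higher and 2348 lower. It was not kept without the EpiSC5 OL library. Ranked by q in place of fold, 1640 members were higher and 1068 lower. With the cell line as a block, 699 members were higher and 799 lower by fold, against 2.29% and 2.55% of all shared regions. The balance of background calls turned when an OPC library was left out, with 123 higher and 745 lower without the 129O1 OPC library and 141 higher and 734 lower without the EpiSC5 OPC library. No background call was made without the 129O1 OL library (3539 higher and 2638 lower at an unadjusted p under 0.05), without the EpiSC5 OL library (3344 and 2095) or with that block (5169 higher and 4591 lower at an unadjusted p under 0.05), and the calls by covered length were 0 (0% of shared regions) with it (3677 higher and 2883 lower at an unadjusted p under 0.05).

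Regions near gene ends and outside genes held smaller shares of higher calls, a difference that was not tested. Near gene ends, 1.51% of regions were higher in OLs by pileup and 3.40% lower, and 1.55% were higher and 6.05% lower by background. Outside genes, 8.63% were higher and 7.57% lower by pileup, and 5.30% higher and 7.64% lower by background. The median OL minus OPC difference of the members was small on every measure: -0.27 percentile points for fold, 1.05 for covered length, 0.59 for pileup and -0.00256 log2 for background. Over all shared regions those medians were 0.50, 0.29, -1.38 and -0.12. The median fold of members was 7.80 and 7.88 in the 129O1 and EpiSC5 OLs and 8.19 and 8.25 in OPCs, and the median pileup was 33 and 36 reads in OLs and 33 and 41 in OPCs.

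**Figure D1:**
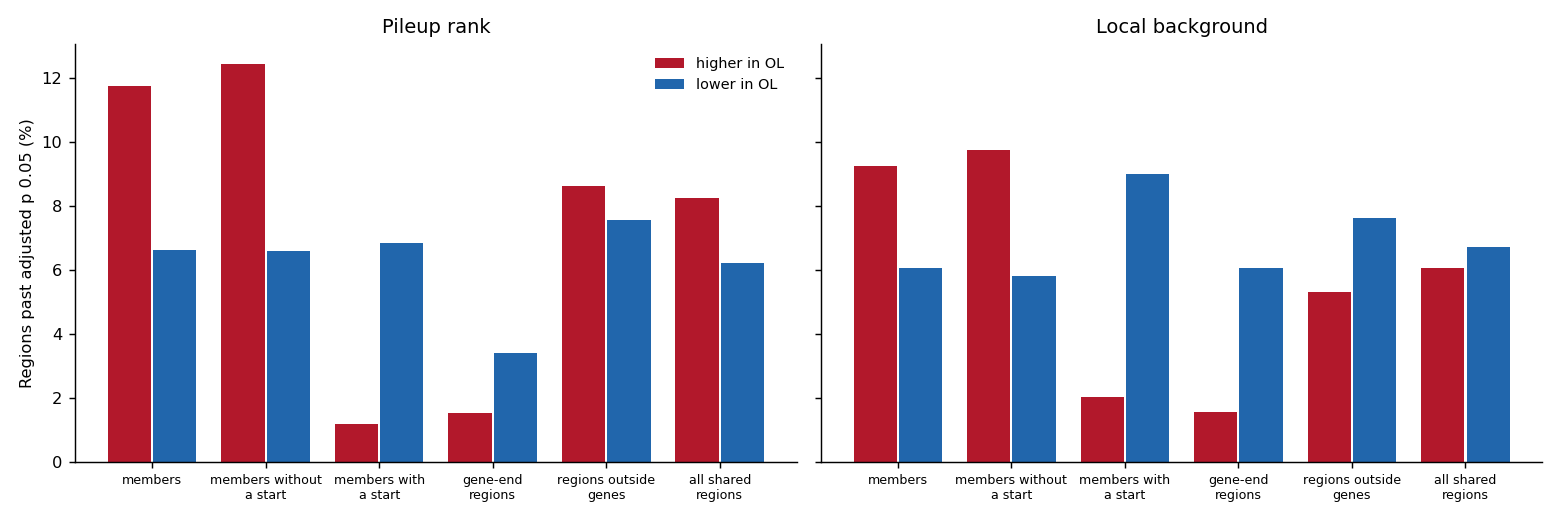
Share of regions in percent (vertical axis) called higher or lower in OLs by pileup rank (left) and local background (right) at a limma adjusted p under 0.05, for members, members with and without a transcription start, and the other classes of shared region. Members stand at 11.8% higher by pileup and 9.24% higher by local background, above the shares near gene ends.

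Libraries of the same cell type resembled each other more than libraries of the same line. Across members, fold ranks correlated at 0.863 between the OL libraries and 0.78 between the OPC libraries, against 0.59 and 0.606 between OL and OPC of lines 129O1 and EpiSC5. Pileup ranks correlated at 0.86, 0.792, 0.498 and 0.488 in the same order. These values describe regions that share libraries and depth.

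The calls overlapped in an uneven way. Of the 461 members higher in OLs by fold, 396 were also higher by pileup, which is 85.9% of the fold calls and 14.2% of the 2779 pileup calls. Of the 525 members lower by fold, 267 (50.9%) were also lower by pileup, and 10 were higher by pileup. A higher fold thus usually came with more summit reads, while many lower folds came with no called difference in them. By background, 109 of the members lower by fold were higher in OLs. Both background and pileup were higher in OLs at 1244 members, 57.0% of the background calls and 44.8% of the pileup calls, and both were lower at 629. At 235 of the 1244, the fold rank was lower in OLs in both lines.

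**Figure D2:**
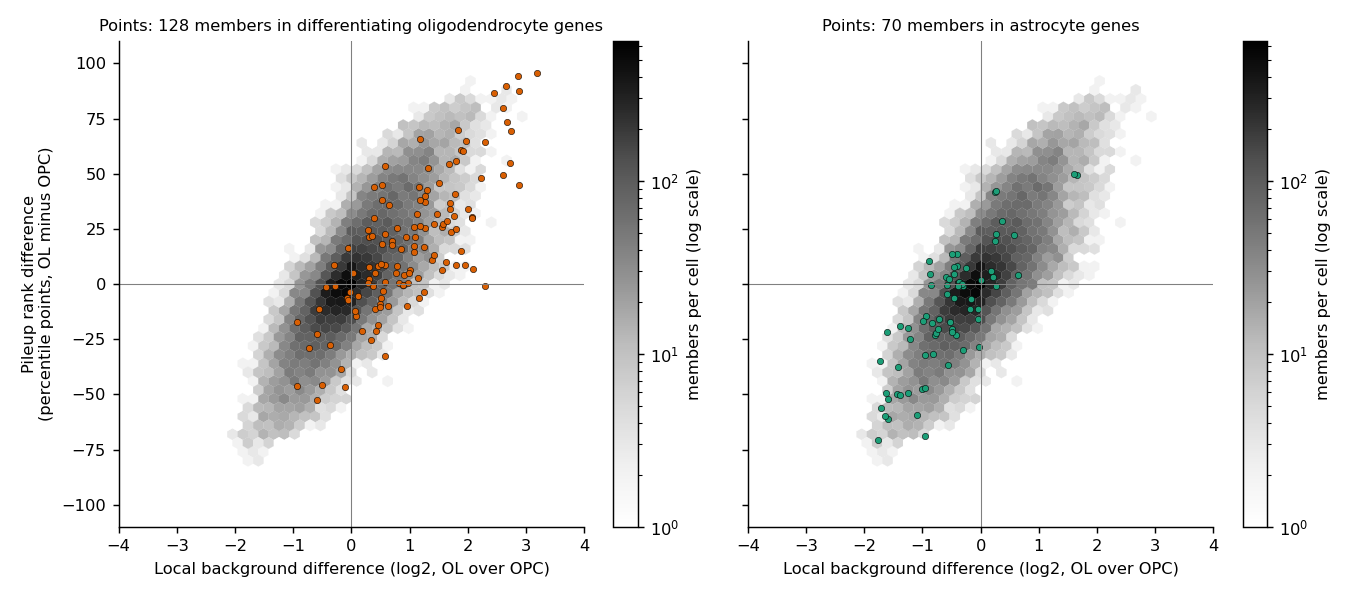
OL minus OPC difference in pileup rank (vertical axis, percentile points) against the difference in local background (horizontal axis, log2) for all members (grey cells, darker where more members fall), with the 128 members in differentiating OL genes (left) and the 70 in astrocyte genes (right) as points. The differentiating OL genes lie mostly to the right of 0, some with little difference in pileup, and the astrocyte genes mostly to the left.

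The 10 members with the largest fold differences in each direction had low folds, of 3.61 to 6.29, in the cell type where they were lower. The largest difference was in Plcl1, which encodes a phospholipase C-like protein without catalytic activity. Its region chr1:55523995-55524259 had folds of 15.0 and 15.6 in the 129O1 and EpiSC5 OLs and 4.07 and 5.05 in OPCs, a difference of 89.0 percentile points (adjusted p = 0.042). Its pileup was 42 and 39 reads in OLs and 21 and 30 in OPCs (adjusted p = 0.0599), and its local background, lower in OLs, differed by -1.38 log2 (SE 0.22, adjusted p = 0.0494). The groups did not overlap on either measure. In Npnt, which encodes the matrix protein nephronectin, the region chr3:132941383-132941795 had folds of 16.3 and 15.1 in OLs and 5.29 and 4.67 in OPCs, with 54 and 68 summit reads in OLs and 11 and 11 in OPCs (pileup adjusted p = 0.00419). A region of Prkd1, the kinase PKD1, had folds of 14.8 and 16.6 in OLs and 5.29 and 4.67 in OPCs, with 37 and 47 summit reads in OLs and 11 and 11 in OPCs. Both sat at the genome-wide background level in OPCs. The other 7 regions with the largest higher folds lay in Zfp366, Frmpd3, Asb14, Il10rb, Babam2, Slc25a21 and Rapgef5. Their pileups in OLs spanned 30 to 75 reads, against 10 to 22 in OPCs, and all 7 also had more summit reads in OLs by the pileup test.

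The largest lower fold was in Nhlrc2. Its region chr19:56588219-56588940 had folds of 4.45 and 5.36 in OLs and 15.0 and 16.0 in OPCs, with 10 and 13 summit reads in OLs and 87 and 75 in OPCs (fold adjusted p = 0.042, pileup adjusted p = 0.00419). In Ptprd, a receptor tyrosine phosphatase of synapses, the region chr4:77361761-77362118 had folds of 5.35 and 4.56 in OLs and 14.2 and 18.8 in OPCs, with 11 and 10 reads in OLs and 38 and 57 in OPCs. OPCs were several times above OLs at both sites. The regions in Nfkb1, Sv2b, Chd9, Mdga2, Fmnl2, Dtna and Zranb3 likewise had fewer summit reads in OLs by the pileup test. The exception was Fntb, the beta subunit of protein farnesyltransferase. Its region chr12:76879302-76879553 had folds of 6.18 and 4.17 in OLs and 15.4 and 14.4 in OPCs, yet 38 and 40 summit reads in OLs and 36 and 38 in OPCs (pileup adjusted p = 0.514). The local background was 4.27 and 6.26 times the genome-wide level in OLs and 1.10 and 1.09 times in OPCs (2.24 log2, SE 0.26, adjusted p = 0.0365).

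**Figure D3:**
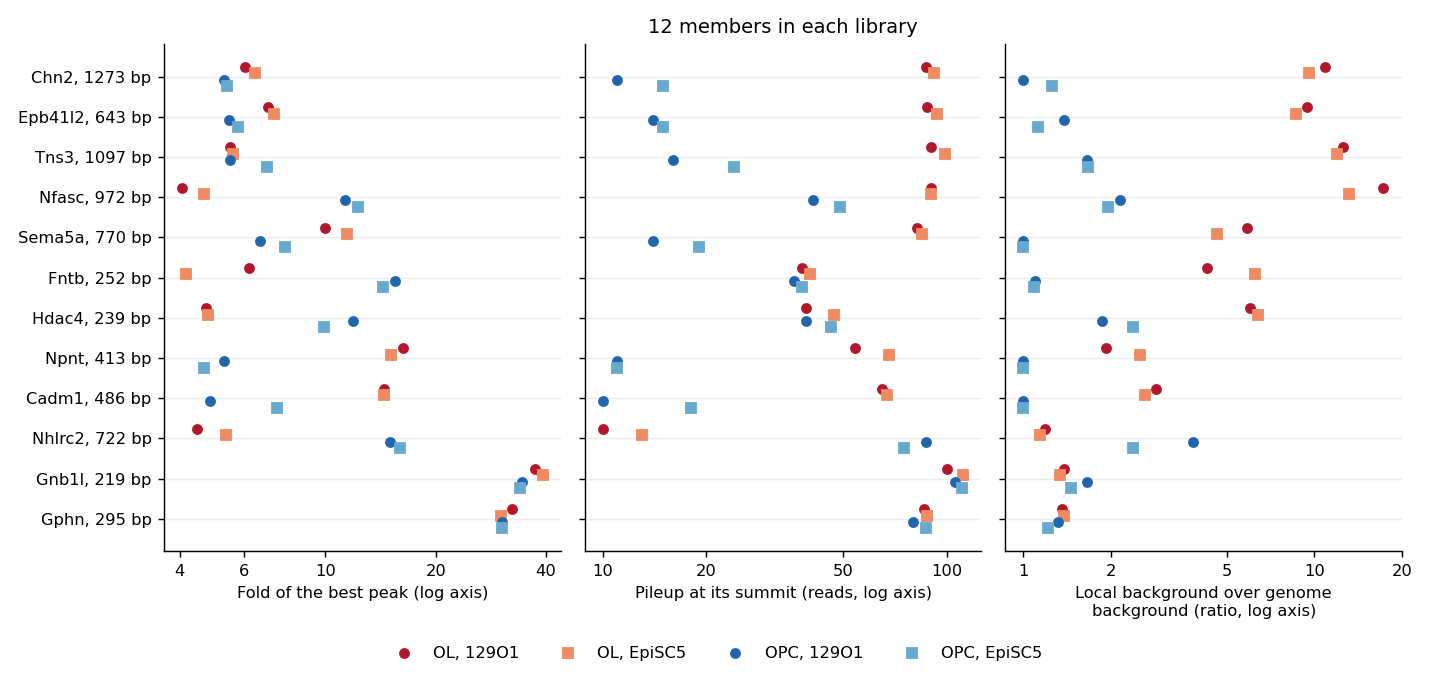
Fold, summit pileup (reads) and local background (multiple of the genome-wide level) on log axes for 12 members named in the text, with 1 mark for each library, OLs drawn above OPCs. Chn2, Epb41l2 and Tns3 are higher in OLs in pileup and background with similar folds, Fntb and Hdac4 are higher in background and lower in fold, and Nhlrc2 is lower in OLs in all panels.

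The 8 members with the highest folds in all 4 libraries are given as a description, since they were picked for a high fold rank in every library. The region chr16:18533153-18533371 in Gnb1l had folds of 37.2 and 39.2 in OLs and 34.4 and 33.9 in OPCs. The region chr13:112578138-112578346 in Il31ra had 35.4 and 35.4 in OLs and 31.1 and 32.3 in OPCs, and the region chr12:78350878-78351172 in Gphn, which encodes the receptor scaffold gephyrin, had 32.3 and 30.2 in OLs and 30.3 and 30.2 in OPCs. The next 5, in Dnah7b, Peak1, Col6a6, Slc1a6 and Atf2, had folds of 20.3 to 29.9 in OLs and 20.2 to 32.6 in OPCs. None of the 8 was called by pileup, covered length or background.

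In genes known for the OPC stage, more members were called higher in OLs by pileup than lower. The OPC identity list held 208 members in 21 genes. Of these, 38 (18.3%) were higher in OLs by pileup and 5 (2.40%) lower, against 11.8% and 6.64% of all members. The median pileup difference was 5.95 percentile points, against 0.59 over all members. By background 29 (13.9%) were higher and 9 (4.33%) lower (median 0.17 log2), against 9.24% and 6.06% of all members. By fold 4 (1.92%) were higher and 3 (1.44%) lower (median -0.01 points), against 1.95% and 2.22%. By covered length 3 (1.44%) were higher and 6 (2.88%) lower, against 0.901% and 0.601% of all members, with a median of 4.46 points. The median background was higher in OLs in both lines in 8 of the 21 genes and lower in 9. Pdgfra, the PDGF receptor that gives CD140a, had 4 members and none was called by pileup, and Cspg4, which gives NG2, had 9 members with 1 higher. Sox6, a transcription factor that holds cells in the OPC state, had 30 members, of which 7 were higher and 1 lower by pileup and 5 were higher by background. Dscam, an adhesion protein of neurites, had 6 of 25 higher and 1 lower by pileup. Sema5a, a semaphorin, had 8 of 15 members higher by pileup and 8 by background. Tnr, the matrix protein tenascin-R, had 5 of 13 higher by pileup and 8 by background, and at all 13 both OL libraries had a local background above both OPC libraries.

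Single sites in these genes differed in which measures were called. The Sema5a region chr15:32505814-32506583 had 82 and 85 summit reads in OLs and 14 and 19 in OPCs (adjusted p = 0.00248), and folds of 9.97 and 11.4 in OLs and 6.61 and 7.78 in OPCs (adjusted p = 0.0923). The Tnr region chr1:159686273-159686926 had folds of 4.21 and 4.41 in OLs and 10.4 and 11.95 in OPCs (adjusted p = 0.042), with 39 and 39 summit reads in OLs and 44 and 51 in OPCs (adjusted p = 0.856). Its background was 6.84 and 5.72 times the genome-wide level in OLs and 2.62 and 2.13 times in OPCs. Cacng4, an auxiliary subunit of AMPA receptors, had 76 and 78 summit reads in OLs and 16 and 14 in OPCs at chr11:107755351-107756137 (adjusted p = 0.0036), and its folds were 12.2 and 12.8 in OLs and 7.31 and 5.14 in OPCs (adjusted p = 0.0498), with no overlap in either. Nxph1, a neurexin ligand, had a member higher in OLs by fold, with 13.8 and 14.6 in OLs and 5.29 and 6.61 in OPCs (adjusted p = 0.042), and by pileup (adjusted p = 0.00746). Ptprz1, a receptor tyrosine phosphatase abundant in OPCs, had a member with folds of 17.0 and 19.9 in OLs and 5.94 and 6.82 in OPCs (adjusted p = 0.042), also higher by pileup (adjusted p = 0.00964).

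Genes switched on as OPCs differentiate had the clearest pattern. The list held 128 members in 19 genes. Of these, 42 (32.8%) were higher in OLs by pileup and 6 (4.69%) lower, against 11.8% and 6.64% of all members. The median pileup difference was 16.1 percentile points. By background 53 (41.4%) were higher and 1 (0.781%) lower, against 9.24% and 6.06% of all members, with a median of 0.96 log2. In 17 of the 19 genes the median background was higher in OLs in both lines. By fold, limma called 0 higher and 16 (12.5%) lower in OLs, against 1.95% and 2.22% of all members. At an unadjusted limma p under 0.05, 9 were higher and 55 lower, and the median fold difference was -17.8 points. The medians for summit reads and for the reads around them were thus higher in OLs and that for fold was lower, though most members were not called by fold or by pileup. The list was drawn from genes known for this stage with earlier results of these data known, so its direction is a description.

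Chn2, which encodes the Rac-inactivating protein beta-chimaerin, held a clear example. Its region chr6:54183652-54184924 had 87 and 92 summit reads in the 129O1 and EpiSC5 OLs and 11 and 15 in OPCs, with peaks covering 1273 and 1190 bp in OLs and 80 and 100 bp in OPCs. OLs and OPCs did not overlap on either measure (pileup adjusted p = 0.00156, covered length adjusted p = 0.0472). The background was 10.9 and 9.55 times the genome-wide level in OLs and 1.00 and 1.26 times in OPCs (3.19 log2, SE 0.18, adjusted p = 0.0317), and the fold was 6.04 and 6.42 in OLs and 5.29 and 5.37 in OPCs (adjusted p = 0.329). Epb41l2, a membrane skeleton protein, had 88 and 94 summit reads in OLs and 14 and 15 in OPCs at chr10:25466399-25467041 (adjusted p = 0.00156). Tns3, the focal adhesion protein tensin-3, had 90 and 99 in OLs and 16 and 24 in OPCs at chr11:8637761-8638857 (adjusted p = 0.00156). Each of these regions was picked for its pileup after the values were seen, and each kept its pileup call when any 1 library was left out. Regions of Frmd4a and of Tmem163, a zinc transporter, did so too, with 81 and 83, and 68 and 80 reads in OLs, against 14 and 16, and 12 and 13 in OPCs.

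In Nfasc, every member stood in a raised background in OLs. All 7 of its members had a higher local background in OLs, at 5.63 to 19.6 times the genome-wide level in OLs and 1.28 to 3.24 times in OPCs, with a median difference of 2.31 log2. By pileup, 6 of the 7 were higher, with 26 to 102 reads in OLs and 13 to 51 in OPCs, and at 6 the fold in both OL libraries was below that in both OPC libraries. The region chr1:132727100-132728071 had 90 and 90 summit reads in OLs and 41 and 49 in OPCs (adjusted p = 0.00389), but folds of 4.07 and 4.66 in OLs and 11.3 and 12.3 in OPCs (adjusted p = 0.042). Its background was 17.2 and 13.1 times the genome-wide level in OLs and 2.14 and 1.95 times in OPCs. At chr1:132696036-132696633, the summit reads overlapped between the groups, with 34 and 26 in OLs and 27 and 44 in OPCs (adjusted p = 0.965), while the folds were 2.69 and 2.97 in OLs and 9.97 and 12.8 in OPCs (adjusted p = 0.042).

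The other genes of this stage followed Nfasc to different degrees. Tns3 had 14 members, all with a background in both OL libraries above both OPC libraries (4.77 to 12.5 times the genome-wide level in OLs, 1.44 to 7.20 in OPCs). Of these, 8 were called by background and 4 by pileup, and 2 were lower by fold. Enpp6, a choline phosphodiesterase of newly formed OLs, had 3 of 5 members higher by background and 2 by pileup. Fyn, a Src family kinase, had 4 of 10 higher by background, with 3 higher and 1 lower by pileup, and Itpr2, an inositol trisphosphate receptor, had 4 of 15 higher by background, with 5 higher and 2 lower by pileup. Tcf7l2, a transcription factor of Wnt signalling needed for OL differentiation, had 2 of 9 higher by background and 3 by pileup. Kif21a, a kinesin, held a member that was lower by fold, with 5.03 and 4.47 in OLs and 12.5 and 12.5 in OPCs (adjusted p = 0.042), and 28 and 42 summit reads in OLs, against 52 and 92 in OPCs (adjusted p = 0.0708).

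**Figure D4:**
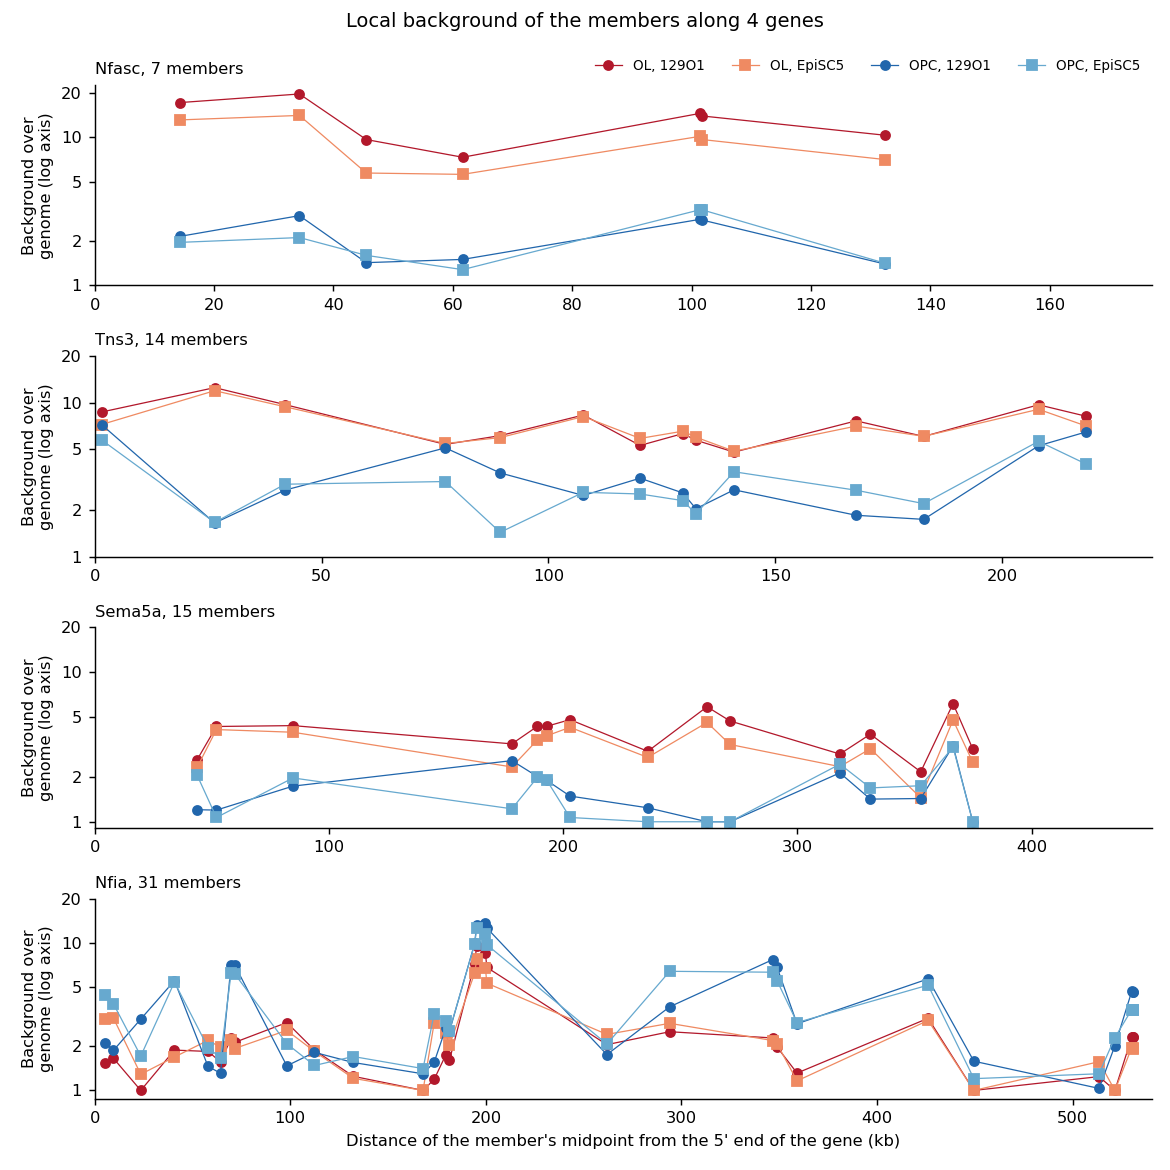
Local background of each member as a multiple of the genome-wide level (vertical axis, log scale) along Nfasc, Tns3, Sema5a and Nfia, by distance from the gene's 5′ end in kb (horizontal axis), with 1 line for each library. In Nfasc and Tns3 the OL libraries lie above the OPC libraries at every member, and in Nfia most members are lower in OLs.

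Genes of mature OLs and myelin had medians of the same signs. The list held 95 members in 19 genes. By pileup 24 (25.3%) were higher and 4 (4.21%) lower (median 17.5 points), against 11.8% and 6.64% of all members. By background 26 (27.4%) were higher and 3 (3.16%) lower (median 0.61 log2), against 9.24% and 6.06% of all members. By fold 1 (1.05%) was higher and 5 (5.26%) lower (median -8.72 points), against 1.95% and 2.22%. Dock9, a guanine nucleotide exchange factor for Cdc42, had 9 of 14 members higher by background and 4 by pileup. Slc44a1, a choline transporter, had 4 of 6 members higher by background and 3 by pileup. Fa2h, which makes the hydroxylated fatty acids of myelin lipids, had a region with 74 and 85 summit reads in OLs and 27 and 36 in OPCs (chr8:111353462-111354094, adjusted p = 0.00374). Mbp, the myelin basic protein gene, had a member with 50 and 70 summit reads in OLs and 8 and 14 in OPCs (adjusted p = 0.00651). Without the EpiSC5 OL library, the Mbp call and that of a Slc44a1 region (48 and 65 reads in OLs, 13 and 18 in OPCs) were lost, at adjusted p = 0.0581 and 0.0544.

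Not every gene of the list took that direction. Pde4b, a cyclic AMP phosphodiesterase, had 19 members, of which 2 were lower by pileup and 3 lower by background. Its region chr4:102533646-102534721 had 22 and 23 summit reads in OLs and 65 and 92 in OPCs (adjusted p = 0.00495). Tmeff2 and Dock10 each held a member lower by pileup as well as by fold. Tmeff2 had 18 and 17 summit reads in OLs and 37 and 74 in OPCs (adjusted p = 0.02), and Dock10 had 14 and 16 in OLs and 34 and 52 in OPCs (adjusted p = 0.0188). Tmeff2 had folds of 4.64 and 4.81 in OLs and 11.04 and 14.9 in OPCs (adjusted p = 0.0425), and Dock10 had 5.55 and 5.40 in OLs and 10.7 and 12.2 in OPCs (adjusted p = 0.0425). Dock5 had a member higher by fold, with 14.2 and 14.2 in OLs and 5.73 and 6.61 in OPCs (adjusted p = 0.042).

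**Figure D5:**
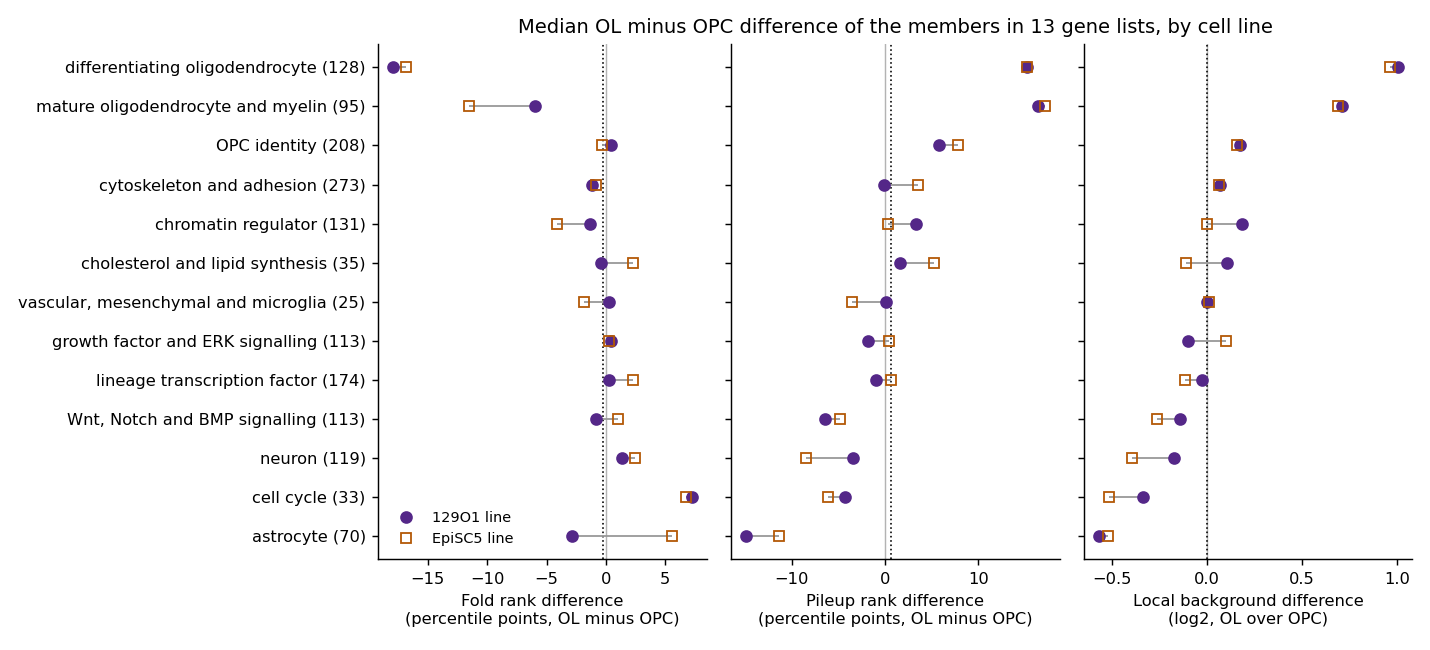
Median OL minus OPC difference of the members in each of 13 gene lists (number of members in brackets) for fold rank and pileup rank (percentile points) and local background (log2), with each line shown separately and the median of all members dotted. The differentiating and mature OL lists lie to the right for pileup and background and to the left for fold, and the astrocyte list lies to the left for pileup and background.

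Lineage transcription factor genes held larger shares of lower calls by pileup and background than all members did. Of 174 members in 21 genes, 20 (11.5%) were higher in OLs by pileup and 23 (13.2%) lower (median 0.31 points), 12 were higher and 21 lower by background (median -0.11 log2), and 4 were higher and 3 lower by fold. Nfia and Nfib, both nuclear factor I genes of gliogenesis, held many of the lower calls. Nfib had 10 members, of which 5 were lower and 1 higher by pileup and 4 lower by background, with a median background of -0.96 log2. At 9 of its 10 members both OL libraries had a background below both OPC libraries. Zfp488, a factor that promotes OL differentiation, had a member with folds of 5.47 and 4.57 in OLs and 11.4 and 10.1 in OPCs (adjusted p = 0.0447). Its raw summit reads overlapped, with 76 and 89 in OLs and 56 and 88 in OPCs. Its pileup ranks did not overlap, at percentiles 91.9 and 96.1 in OLs and 70.5 and 85.6 in OPCs (limma adjusted p = 0.0671). Zfp536, a zinc finger repressor, had a member higher by fold, with 16.2 and 14.5 in OLs and 7.05 and 6.22 in OPCs (adjusted p = 0.042), and Rarb, a retinoic acid receptor, had one lower by fold, with 6.92 and 8.25 in OLs and 16.6 and 16.6 in OPCs (adjusted p = 0.042).

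Among genes of other cell types, the astrocyte list had mostly lower calls. Of 70 members in 15 genes, 2 (2.86%) were higher in OLs by pileup and 16 (22.9%) lower, against 11.8% and 6.64% of all members. The median pileup difference was -15.2 points. By background limma called 0 higher and 16 (22.9%) lower (4 and 33 at an unadjusted p under 0.05, median -0.55 log2), against 9.24% and 6.06% of all members. Nfia, which is also in the transcription factor list, had 31 members, of which 6 were lower by pileup and 9 by background. At 22 of the 31 both OL libraries had a background below both OPC libraries. Slc1a3, the glutamate transporter GLAST, had 2 of 3 members lower by pileup and by background (median -1.38 log2), and Slc4a4, a bicarbonate transporter, had 3 and 2 of 11. Ranbp3l held a member with 14 and 15 summit reads in OLs and 50 and 84 in OPCs (adjusted p = 0.00528), with folds of 6.68 and 6.64 in OLs and 16.1 and 19.1 in OPCs. The 4 astrocyte markers were covered over 3151 and 3886 bp in OLs and 6093 and 7311 bp in OPCs, and the part of astrocytes in these values was not tested. Nfia is known to be expressed in glial progenitors as well as astrocytes.

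Neuronal genes leaned lower too, with 10 (8.40%) of 119 members in 17 genes higher in OLs by pileup and 18 (15.1%) lower (median -4.70 points). By background 1 (0.840%) was higher and 9 (7.56%) lower. All members had 11.8% higher and 6.64% lower by pileup, and 9.24% and 6.06% by background. Map2, a microtubule-associated protein, had a member with 26 and 27 summit reads in OLs and 69 and 95 in OPCs (adjusted p = 0.00503). Vascular, mesenchymal and microglial genes held 25 members in 12 genes, of which 2 (8%) were higher and 1 (4%) lower by pileup. By background 1 (4%) was higher and 1 (4%) lower.

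In the signalling lists, fold calls were few in each direction, at shares not far from those of all members. In the Wnt, Notch and BMP list, 7 (6.19%) of 113 members in 26 genes were higher in OLs by pileup and 15 (13.3%) lower (median -5.40 points). By background 1 (0.885%) was higher and 14 (12.4%) lower (median -0.21 log2), against 9.24% and 6.06% of all members. By fold 4 (3.54%) were higher and 3 (2.65%) lower, against 1.95% and 2.22% of all members. Lgr5, a receptor that enhances Wnt signalling, had 70 and 85 summit reads in OLs and 46 and 39 in OPCs (adjusted p = 0.011), with folds of 13.7 and 16.8 in OLs and 5.74 and 4.83 in OPCs. Maml3, a Notch coactivator, had folds of 13.7 and 14.7 in OLs and 7.04 and 6.23 in OPCs (adjusted p = 0.042), and Bmpr1a, a BMP receptor, had 12.3 and 12.9 in OLs and 7.10 and 5.29 in OPCs (adjusted p = 0.0454). These 3 sites were all higher in OLs by fold and by pileup, against the direction of the list's median for pileup, while the local background at the Lgr5 site was 3.37 and 2.91 times the genome-wide level in OLs and 5.66 and 4.64 times in OPCs (adjusted p = 0.0764). In the growth factor and ERK list, 19 (16.8%) of 113 members in 28 genes were higher by pileup and 14 (12.4%) lower (median 0.97 points), against 11.8% and 6.64% of all members. By background 6 (5.31%) were higher and 10 (8.85%) lower, and by fold 3 (2.65%) were higher and 3 (2.65%) lower. Spred1, an inhibitor of ERK signalling, had a member with 34 and 36 summit reads in OLs and 14 and 24 in OPCs (adjusted p = 0.0459), and folds of 12.6 and 12.95 in OLs and 4.46 and 6.79 in OPCs (adjusted p = 0.0463).

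Cell cycle genes had 33 members in 12 genes, of which 1 (3.03%) was higher in OLs by pileup and 2 (6.06%) lower. By background 1 (3.03%) was higher and 9 (27.3%) lower (median -0.44 log2), against 9.24% and 6.06% of all members. Ccnd2, a D-type cyclin, had 2 of 3 members lower by background, and Cdk6, its partner kinase, had 4 of 10. Ccnd3, another D-type cyclin, held the exception, with 56 and 67 summit reads in OLs and 17 and 17 in OPCs (chr17:47528980-47529318, adjusted p = 0.00485). In the cytoskeleton and adhesion list, 35 (12.8%) of 273 members in 33 genes were higher by pileup and 23 (8.42%) lower, against 11.8% and 6.64% of all members. By background 19 (6.96%) were higher and 24 (8.79%) lower. By fold 7 (2.56%) were higher and 10 (3.66%) lower, against 1.95% and 2.22% of all members. Cadm1, a cell adhesion molecule, had 65 and 67 summit reads in OLs and 10 and 18 in OPCs (adjusted p = 0.00493). Chromatin regulator genes had 19 (14.5%) of 131 members in 26 genes higher and 11 (8.40%) lower by pileup. By background 16 (12.2%) were higher and 10 (7.63%) lower, against 9.24% and 6.06% of all members. Tet1, which oxidises methylcytosine, had 62 and 74 summit reads in OLs and 14 and 21 in OPCs (adjusted p = 0.00397). Hdac4, a histone deacetylase, showed the background pattern, with 39 and 47 summit reads in OLs and 39 and 46 in OPCs (adjusted p = 0.598) and a background of 6.01 and 6.39 times the genome-wide level in OLs and 1.86 and 2.38 times in OPCs (adjusted p = 0.035).

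The cholesterol and lipid synthesis list held 35 members in 13 genes. By pileup 6 (17.1%) were higher in OLs and 3 (8.57%) lower, against 11.8% and 6.64% of all members. By background 7 (20%) were higher and 1 (2.86%) lower, against 9.24% and 6.06% of all members. By fold limma called 2 (5.71%) higher and 0 lower, against 1.95% and 2.22% of all members. At an unadjusted limma p under 0.05, 3 in the list were higher and 5 lower. The 2 fold calls were in Abca1, a cholesterol exporter, and Acaca, the acetyl-CoA carboxylase that starts fatty acid synthesis. Abca1 had folds of 12.1 and 12.5 in OLs and 4.85 and 5.05 in OPCs (adjusted p = 0.042), and Acaca had 10.7 and 13.3 in OLs and 4.85 and 5.05 in OPCs (adjusted p = 0.042). At both, the OPC sites were at the genome-wide background.

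The genes with the most members were long genes of adhesion, signalling and transcription: Nav2 held 35, Pde4d 34, Opcml 33, Lsamp and Ptprg 32 each, Nfia 31, and Gse1 and Sox6 30 each. Fold calls were spread thinly over genes. Ank2, which encodes the scaffold ankyrin-B, had the most members higher by fold, with 3, and Npas3, Nlgn1 and Ptprn2 were among those with 2. Frmd4a, Tmem108 and Syn3 had 4 lower each, and Ctnnd2 and Rere had 3. Of the 614 genes with 8 or more members, 259 had a higher median background in OLs in both lines and 239 a lower one. Picked after their values were seen, the lowest median background in OLs was that of Sema3a, a repulsive guidance cue, at -1.14 log2. The highest median pileup difference was that of Itpk1, an inositol phosphate kinase, at 38.5 points, followed by Ptprj, a receptor phosphatase, at 36.3. Within the 129O1 and EpiSC5 lines the medians were 27.0 and 23.3 for Itpk1 and 40.1 and 32.5 for Ptprj. By pileup, 2 of 8 Itpk1 members and 5 of 8 Ptprj members were called higher. Aopep, an aminopeptidase gene, had 9 of 17 members higher by pileup. The lowest median pileup differences were those of Nfib at -35.1 and Mef2c, a MADS-box transcription factor, at -26.5.

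The members of a gene can be set beside its peaks found in a single cell type, which the choice of members left out. Of the genes with 8 or more members, 466 had more regions with peaks only in OLs than only in OPCs. Over these genes, the median of the members' differences was 0.09 log2 for background, 4.25 points for pileup, 2.24 for covered length and -1.40 for fold. The 111 genes with more OPC-only regions had -0.31 log2 for background, -5.89 points for pileup, -1.44 for covered length and 2.28 for fold. All these values rest on the same 4 libraries and are a description. The lists held 127196 and 152595 peaks in the 129O1 and EpiSC5 OLs and 129534 and 125002 in OPCs. What part the length of the lists had in the 466 and 111 was not tested. Reads under a peak found in 1 cell type also enter the background of any member whose 10 kb window covers that peak. The signs of background and fold are therefore tied in part by arithmetic to how the genes were grouped. The fold had the opposite sign to the other measures in both sets of genes.

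Members were spread nearly evenly along their genes. Of the 18509 members that could be placed between a start and an end, 20.9% lay in the first of 5 equal parts from the 5′ end and 18.8% in the last. In that first part 8.52% were higher in OLs by pileup, against 11.9% to 13.5% in the others. Of the members, 22 overlapped 1 or more of 23 microRNA hairpins, and 5 of the 22 were called by fold, pileup or background. Over all members, 11.8% were called higher and 6.64% lower by pileup alone, and the share called by any of these measures was not counted. The 5 are thus not shown to exceed that share. The members over Mir8103 in Osbpl7 and Mir6541 in Wdfy2 were higher in OLs by pileup and background, and that over Mir6339 in Tgm3 was higher by fold and pileup. The member over Mir12181 in Coro6 was higher by fold (adjusted p = 0.0478), and that over Mir449c in Cdc20b was lower by background (-0.92 log2, adjusted p = 0.0424). All 5 were named after their values were seen.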

How the data were processed

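The 4 deposited peak lists come from single-end reads of 50 bp, as the labels' protocols state. The submitters' processing notes name MACS2, Bowtie2 2.3.2, Trim Galore 0.3.1, Picard and build mm10, with no settings. Per the file layout, each deposited peak has a score, a fold over the local background (a ratio), a −log10 p, a −log10 q and a summit offset (other). Depth is not given in the lists.

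Peaks were merged and regions classed with Python 3.11.15 (numpy 2.4.6, pandas 2.3.3, scipy 1.17.1). A region's fold is that of its best peak. Ranks were taken among the 55466 shared regions of each list, turned into normal quantiles and compared between OL and OPC with limma 3.58.1 in R 4.3.3 (trend, 2 residual degrees of freedom before moderation, two-sided, Benjamini-Hochberg over all shared regions, threshold 0.05). Differences are OL minus OPC. The fit was tested on simulated data. Members, gene lists and tests were chosen with earlier results of these data known.

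The pileup and local background, added after the values were seen, were recovered by solving fold = (reads + 1) / (background + 1) and a Poisson p together. They returned every deposited −log10 p within 0.001, and expected reads above the genome-wide average were whole numbers per 10 kb window within 0.05 reads, while 16.9% to 19.8% of peaks sat at that average. Samples of the same line form pairs. Their deviations from the group means correlated at 0.177 for fold, 0.101 for covered length and 0.222 for pileup, and the line as a block is an alternative.

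Regions named by rule were the 10 in each direction with the largest fold rank difference among called members with the same sign in both lines and in covered length (1 per gene), the 8 with the highest lowest-of-4 fold rank, up to 3 per gene list (2 where none passed), the 8 genes with the most members, and the 5 with the most calls each way. Regions named for pileup or background are outside that rule and were chosen after their values were seen. Gene positions and start windows are from RefSeq. Motifs were planned for the regions themselves, and start windows were used in their place. Alternatives were other ranks and scales, mean fold, q in place of fold, the better 50% of each list by q, width under 1000 bp, 2 kb from gene ends, other gene ends, no trend, the block, and leaving out each library. A few regions that the rule names are not reported here.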

Additional observations from a re-analysis of the deposited data

Results flagged for a closer look

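In 12 cases, over all 4 measures, the median OL minus OPC difference of a gene list's members had opposite signs in the cell lines 129O1 and EpiSC5 and was at least 0.01 from 0 in both. None of these differences between the lines was tested, since each line has 1 library per cell type. For fold rank, in percentile points, OPC identity genes had a median of 0.45 in 129O1 and -0.36 in EpiSC5, and Wnt, Notch and BMP genes had -0.84 in 129O1 and 0.99 in EpiSC5. Cholesterol and lipid synthesis genes had a median fold rank difference of -0.44 in 129O1 and 2.24 in EpiSC5, and vascular, mesenchymal and microglial genes had 0.25 in 129O1 and -1.84 in EpiSC5. The widest gap was in astrocyte genes, with a median fold rank difference of -2.83 in 129O1 and 5.59 in EpiSC5, while their pileup medians had the same sign in both lines.

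For pileup rank, lineage transcription factor genes had a median of -1.01 points in 129O1 and 0.63 in EpiSC5, and cytoskeleton and adhesion genes had -0.13 in 129O1 and 3.53 in EpiSC5. Growth factor and ERK genes had a median pileup difference of -1.79 in 129O1 and 0.43 in EpiSC5, and vascular, mesenchymal and microglial genes had 0.07 in 129O1 and -3.57 in EpiSC5. For local background, growth factor and ERK genes had a median of -0.10 log2 in 129O1 and 0.10 in EpiSC5, and cholesterol and lipid synthesis genes had 0.10 in 129O1 and -0.11 in EpiSC5. For covered length rank, cell cycle genes had a median of -0.55 points in 129O1 and 2.05 in EpiSC5.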

How the results depend on the processing

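Of 82 tests of named regions (52 of fold, 15 of pileup, 15 of background), none reversed under the alternatives run on it. Only regions already called on the measure were included, many picked for large differences. A reversal was thus unlikely from the start, and its absence says little about stability. The alternative scalings of a measure were run on that measure's tests only, the best-q lists held 5 of the 82, and the setting with 1 bp common to all 4 lists held 78. All 52 fold calls among them were lost on rank percentiles without normal quantiles and whenever a library was left out. Counts of members are given as higher, then lower, in OLs. Fold counts were 461 and 525, 0 and 0 on plain percentiles (3126 and 3610 at an unadjusted limma p under 0.05), 1640 and 1068 by q, and 199 and 469 among the better 50% of each list by q. Covered length counts were 213 and 142, 0 and 0 with ranks among all peaks or with no trend, 430 and 294 on plain percentiles, 940 and 611 on log2 values, and 79 and 48 in the best-q lists. Pileup counts were 2779 and 1569, 2780 and 2348 on log2 pileup, and 851 and 364 in the best-q lists. Background counts were 2184 and 1432, 933 and 741 in the best-q lists, and 4009 and 2185 by rank. The cause of these shifts was not tested, beyond the fewer regions in the best-q lists.

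With the cell line as a replicate block, fold counts were 699 and 799, covered length counts 0 and 0, and background counts 0 and 0 (limma), with 67 of 82 named calls kept. Without a library, fold counts were 0 to 0 in both directions (1924 to 3457 and 2314 to 3717 at an unadjusted p under 0.05), covered length counts 0 to 39 and 0 to 243, pileup counts 567 to 3967 and 673 to 1909, and background counts 0 to 141 and 0 to 745. Without the EpiSC5 OL library the pileup counts were 567 and 673, and without the 129O1 and EpiSC5 OPC libraries the background counts were 123 and 745, and 141 and 734, more lower than higher in each.

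The members' medians were all near 0. The fold median was -0.956 with ranks among all peaks, 0.0106 log2 on values, 0.143 by q, -0.633 in the best-q lists and -0.665 beyond 2 kb of gene ends. The covered length median was 0.147 with ranks among all peaks, 0.064 log2 on values and 1.58 in the best-q lists. The pileup median was 1.03 in the best-q lists, 1.1 under 1000 bp, 1.1 beyond 2 kb and -0.0614 log2 on values, and the background median was -0.046 log2 in the best-q lists and 0.81 points by rank. Without a library they ranged over -0.606 to -0.111 for fold, 0.566 to 1.73 for covered length and 0.187 to 1.39 for pileup. A member needs a peak in all 4 lists, so sites too shallow for the caller in any library are not seen.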
